A study of Mus musculus with 6 samples.

Results

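The kainate receptor genes Grik1, Grik2, Grik3, Grik4 and Grik5 and the genes of their auxiliary proteins, Neto1 and Neto2, were followed in mouse hippocampus by gene counts and by splice junction counts. These 7 genes were chosen by symbol, were matched to 1 Ensembl gene each, and were 7 of the 52550 genes in the count table. They carried 31 of the 40961 listed alternative splicing events. The samples were hippocampi of male C57BL/6 J wild-type mice that received adeno-associated virus (AAV) in CA1 of both hemispheres at 8 weeks of age, with control shRNA in 3 samples and shRNA in the other 3 against L-DL, the longer protein made from Hnrnpdl. The AAV that carried the L-DL shRNAs placed several of them in tandem, each behind an H1 promoter, which is not restricted to a cell type, and carried a CamkIIα promoter to mark neurons with zsGreen. The control virus was given at a higher titre. The labels call the controls wild type and the treated samples hnRNP DL KD in one field and hnRNP DL-/- in another, although the study describes a knockdown by virus. The age at tissue collection, and whether a library came from 1 mouse or from several, are not given in the sources used here, so p-values measure only the spread between these libraries.

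Kainate receptors are tetrameric glutamate-gated ion channels. GluK1, GluK2 and GluK3 (from Grik1, Grik2 and Grik3) are low-affinity subunits that can form channels alone, whereas GluK4 and GluK5 (from Grik4 and Grik5) bind kainate with high affinity and need one of the former to make a working channel. Neto1 and Neto2 are transmembrane CUB-domain proteins that attach to these receptors and slow their gating. In the hippocampus the receptors are best known at mossy fibre synapses on CA3 pyramidal neurons and, for GluK1, in inhibitory interneurons.

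The reads counted on genes numbered 16052529 to 17913064 per library. Reads over splice junctions, summed over all events, numbered 6760349 to 7939931 per library. The count of the targeted gene Hnrnpdl was not detectably lower. Controls 1, 2 and 3 had 2862, 3120 and 2689 reads, and the treated samples 3939, 2680 and 2904. Its mean level was 177 ± 6.42 reads per 1000000 reads of TMM-scaled library size (CPM) in controls and 180 ± 33.9 CPM in the other group (SD, n = 3 each), a log2 difference of 0.03 (standard error 0.12) that edgeR did not call (adjusted p = 0.898). The count covers all Hnrnpdl transcripts, so L-DL could not be read by itself. The study assessed the knockdown as L-DL protein, by immunoblots of injected hippocampus, and describes these mice as having reduced L-DL. RNA counts of the whole gene do not measure that protein. The treated group is named here by its label only, as the L-DL KD-labelled libraries. Genes that mark CA1, CA3 and dentate gyrus neurons were detected, with 6 of 6, 5 of 5 and 6 of 6 matched genes past the count filter. The choroid plexus list (4 genes, Ttr among them) varied widely within both groups, with summed levels of 410 to 4473 CPM in the controls and 26.6 to 5006 CPM in the L-DL KD-labelled libraries, and none of its genes was called.

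All 7 genes passed the filter of at least 10 counts in at least 3 libraries, and each was lower on average in the L-DL KD-labelled libraries. Of the 7 genes 4 passed the test. Grik1, Neto1 and Neto2 fell to between 45.4% and 55.7% of the control level and Grik5 to 75.9%. None rose, and Grik2, Grik3 and Grik4 were not called. A gene was called at an adjusted p under 0.05 in edgeR's quasi-likelihood model, adjusted by Benjamini-Hochberg over all 17621 tested genes. By the same rule 30.5% of all tested genes were called, 15% lower and 15.6% higher. The groups did not overlap in 5 of the 7 genes, all lower, against 47.2% of tested genes in either direction and 23.4% lower. The median log2 fold change was -0.40 over the 7 genes and 0.01 over all tested genes. Fewer cells of a type and less RNA per cell cannot be told apart in such tissue RNA.

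**Figure D1:**
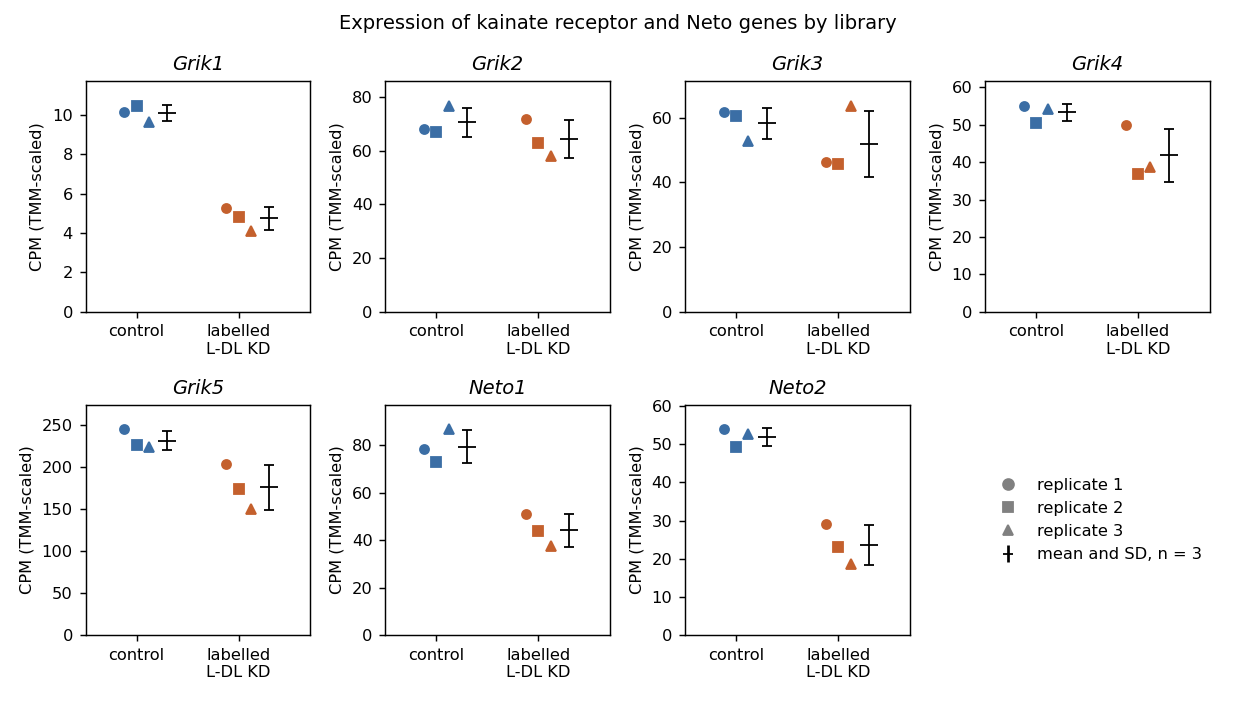
Level of each kainate receptor and Neto gene in CPM after TMM scaling (y axis from 0) in the 3 control libraries and the 3 L-DL KD-labelled libraries. Points are libraries, and the bar shows the mean with SD (n = 3). The groups are apart for Grik1, Grik4, Grik5, Neto1 and Neto2 and overlap for Grik2 and Grik3.

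Among the low-affinity subunits, Grik1 was the one that fell. Grik1 (ENSMUSG00000022935, GRCm38 chr16:87895900-88290265, minus strand) encodes GluK1. It had 165, 178 and 152 reads in control replicates 1 to 3 and 96, 86 and 69 reads in the L-DL KD-labelled libraries. In scaled units this was 10.2, 10.5 and 9.65 CPM against 5.29, 4.82 and 4.11 CPM. The groups did not overlap, and the lowest control was well above the highest L-DL KD-labelled library. The means were 10.1 ± 0.415 and 4.74 ± 0.593 CPM (SD, n = 3 each), a log2 fold change of -1.09 (standard error 0.16, adjusted p = 0.00192, edgeR). A fall of this size was uncommon, since 2.96% of tested genes were called with a log2 fold change of -1 or lower, Grik1 and Neto2 among them.

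Grik2 (ENSMUSG00000056073, GRCm38 chr10:49094833-49788766, minus strand) encodes GluK2, the main subunit that forms channels in principal neurons. Its level was 68.0, 67.1 and 76.8 CPM in the controls and 72.0, 62.9 and 58.1 CPM in the L-DL KD-labelled libraries. The first L-DL KD-labelled library lay above 2 of the 3 controls, so that the groups overlapped. The means were 70.7 ± 5.38 and 64.3 ± 7.09 CPM (SD, n = 3 each), with a log2 fold change of -0.14 (standard error 0.10, adjusted p = 0.335, edgeR).

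Grik3 (ENSMUSG00000001985, GRCm38 chr4:125490700-125714173, plus strand) encodes GluK3, a subunit with a very low sensitivity to glutamate. It was at 61.6, 60.4 and 52.6 CPM in the controls and at 46.4, 45.8 and 63.7 CPM in the L-DL KD-labelled libraries. Replicate 3 labelled L-DL KD was the highest of all 6 libraries, whereas the other two were below every control. The means were 58.2 ± 4.85 and 51.9 ± 10.2 CPM (SD, n = 3 each), with a log2 fold change of -0.17 (standard error 0.14, adjusted p = 0.401, edgeR). Without that replicate the log2 fold change was -0.33 and Grik3 was called (adjusted p = 0.0352, edgeR), where the 11 alternatives for this gene gave adjusted p-values up to 0.759.

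The high-affinity subunits were both lower, and 1 of them passed the test. Grik5 (ENSMUSG00000003378, GRCm38 chr7:25009849-25072346, minus strand) encodes GluK5, the partner of GluK2 in most neurons. Its reads numbered 3964, 3836 and 3520 in the controls and 3684, 3089 and 2524 in the L-DL KD-labelled libraries. After scaling, these were 244, 226 and 224 CPM against 203, 173 and 150 CPM. The controls lay close together and above all L-DL KD-labelled libraries, which were spread more widely. The means were 231 ± 11.4 and 176 ± 26.4 CPM (SD, n = 3 each), a log2 fold change of -0.40 (standard error 0.11, adjusted p = 0.0262, edgeR). The call was lost when control replicate 1, 2 or 3 or replicate 2 labelled L-DL KD was left out (adjusted p = 0.0939, 0.0652, 0.0627 and 0.0775, edgeR).

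Grik4 (ENSMUSG00000032017, GRCm38 chr9:42518135-42944493, minus strand) encodes GluK4, which is known from CA3 neurons and mossy fibres. It measured 55.1, 50.6 and 54.2 CPM in the controls and 49.97, 36.8 and 38.8 CPM in the L-DL KD-labelled libraries. The groups were apart, but replicate 1 labelled L-DL KD was only just below the lowest control. The means were 53.3 ± 2.39 and 41.9 ± 7.10 CPM (SD, n = 3 each), with a log2 fold change of -0.35 (standard error 0.12, adjusted p = 0.0589, edgeR). Grik4 was called in 4 of the 11 alternatives, among them those without the low-count filter (adjusted p = 0.0414, edgeR), with DESeq2 (adjusted p = 0.0386), and without replicate 1 labelled L-DL KD (log2 fold change -0.49, adjusted p = 0.00174, edgeR), and over all alternatives its adjusted p ranged from 0.00174 to 0.172.

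Both auxiliary genes fell. Neto2 (ENSMUSG00000036902, GRCm38 chr8:85636588-85700924, minus strand) had 873, 836 and 828 reads in the controls and 527, 411 and 311 reads in the L-DL KD-labelled libraries. In CPM it was 53.8, 49.2 and 52.6 against 29.0, 23.1 and 18.5. No L-DL KD-labelled library came near the controls, and the 3 of them differed more among themselves than the controls did. The mean went from 51.9 ± 2.39 to 23.5 ± 5.27 CPM (SD, n = 3 each), a log2 fold change of -1.14 (standard error 0.15, adjusted p = 0.00132, edgeR).

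Neto1 (ENSMUSG00000050321, GRCm38 chr18:86394952-86506718, plus strand) also binds NMDA receptors and is, like GluK4, known from CA3 synapses. Its reads numbered 1271, 1238 and 1363 in the controls and 925, 784 and 628 in the L-DL KD-labelled libraries, or 78.3, 72.8 and 86.6 CPM against 51.0, 44.0 and 37.4 CPM. All controls were above all L-DL KD-labelled libraries. The means were 79.2 ± 6.90 and 44.1 ± 6.77 CPM (SD, n = 3 each), with a log2 fold change of -0.84 (standard error 0.12, adjusted p = 0.0017, edgeR). An annotated antisense gene overlaps Neto1, and since the libraries do not mark strand, reads from both cannot be told apart where they overlap. The falls of Grik1, Neto1 and Neto2 were called in every one of the 11 alternatives, with adjusted p-values of at most 0.0124, 0.0108 and 0.00927 and log2 fold changes of -1.17 to -0.99, -0.96 to -0.74 and -1.31 to -0.99.

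**Figure D2:**
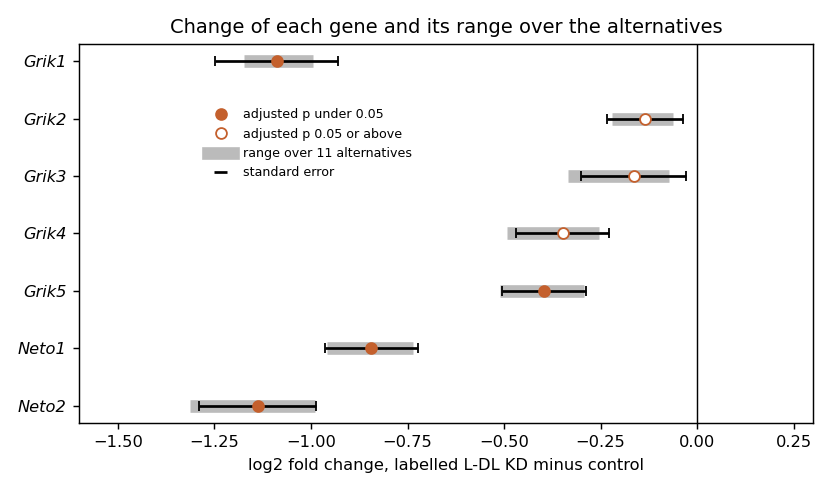
Log2 fold change of each gene, L-DL KD-labelled libraries minus control (x axis), with its standard error from edgeR as a black bar and its range over 11 alternative settings as a grey band. Filled points (Grik1, Grik5, Neto1, Neto2) had an adjusted p under 0.05 and open points did not, and no band reaches 0.

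Reads over splice junctions, which come from the same libraries but were counted separately from the gene counts, gave differences of the same sign. For each gene the listed exon skipping event with the most inclusion reads was taken. Its inclusion reads were scaled to the total of junction counts in the library, as CPM, and set side by side as group means. Grik1 went from 4.09 to 1.78 (log2 ratio -1.21), Neto2 from 3.23 to 1.79 (-0.85), Neto1 from 19.4 to 12.4 (-0.65) and Grik5 from 93.4 to 69.6 (-0.42). The groups were apart in this measure for Grik1, Neto1 and Grik5 and overlapped for Neto2. Grik4 (log2 ratio -0.51), Grik3 (-0.32) and Grik2 (-0.19) overlapped as well. The Neto2 exon counted was the longer, 45 nt form of exon 5, with 6 to 29 reads per library. Its shorter form of 24 nt is a separate event. The Neto2 value thus mixes the level of the gene with the choice between these forms. No test was made on these ratios.

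Markers of several cell types moved with the same contrast. For the counts below, 15% of all tested genes were called lower and 15.6% higher. Of 10 pan-neuronal genes 8 fell and 2 rose (the neurofilament genes Nefl and Nefm), with a median log2 fold change of -0.45 and summed levels of 3680 to 3903 CPM in the controls and 3066 to 3518 CPM in the L-DL KD-labelled libraries. Of 10 interneuron genes 6 fell and none rose (median log2 fold change -1.11), with sums of 712 to 786 CPM in the controls and 314 to 519 CPM in the L-DL KD-labelled libraries. Gad1 and Gad2, which make the transmitter GABA, fell from 275 to 132 CPM and from 128 to 57.1 CPM. Of 6 CA1 genes 1 rose and 3 fell (median log2 fold change -0.72; sums of 396 to 486 against 287 to 339 CPM). Of 5 CA3 genes 1 rose and 2 fell, with a median log2 fold change of -1.22 and geometric means of 21.2 to 24.2 CPM in the controls and 10.8 to 14.0 CPM in the L-DL KD-labelled libraries. Their sum was nevertheless higher (150 to 167 against 178 to 189 CPM), since Bok alone went from 66.6 to 123 CPM. Of 6 dentate genes 2 rose and 2 fell (median 0.10; 516 to 560 against 602 to 690 CPM). All 8 microglial genes rose (median log2 fold change 1.11; 900 to 1129 against 1977 to 2428 CPM), as did 4 of 5 oligodendrocyte precursor genes (median 0.46; 360 to 366 against 430 to 557 CPM) and 2 of 4 endothelial genes (median 0.62; 172 to 187 against 216 to 257 CPM), and none of these fell. Of 6 astrocyte genes 1 rose and 2 fell (median -0.20; 7031 to 7154 against 5626 to 6629 CPM), and of 6 oligodendrocyte genes 1 rose (median 0.18; 7565 to 8082 against 6540 to 9558 CPM). The part of these shifts in the changes of the kainate receptor and Neto genes was not tested.

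Each gene was also given relative to the neuronal genes of its own library. The measure was the log2 ratio of its CPM to the geometric mean of the 10 neuronal genes. On this scale the difference was -0.86 for Neto2, with values of -2.34, -2.41 and -2.38 in the controls and -2.94, -3.34 and -3.43 in the L-DL KD-labelled libraries. It was -0.79 for Grik1 and -0.55 for Neto1, and in these 3 genes the groups did not overlap (two-sided exact permutation p = 0.1, the smallest that 3 against 3 allows; 0.186 after Benjamini-Hochberg adjustment over the 13 ratios computed). For Grik5 the difference was -0.10 (exact permutation p = 0.4), for Grik4 -0.06 (p = 0.8, exact), for Grik3 0.13 (p = 0.8, exact) and for Grik2 0.17 (p = 0.2, exact). The libraries overlapped in these 4 genes. The neuronal reference holds Nefl and Nefm, which rose (log2 fold changes 0.88 and 1.65), beside 8 genes that fell. Without Nefl and Nefm in it, every difference above would be less negative or more positive. The ratios to the 8 genes alone were not computed. Relative to the geometric mean of the interneuron genes, Grik1 had log2 ratios of -2.21, -2.14 and -2.23 in the controls. In the L-DL KD-labelled libraries they were -2.61, -2.57 and -2.31. The difference was -0.30 with no overlap (exact permutation p = 0.1, adjusted 0.186). This reference holds Npy, Reln and Pvalb, which were higher but not called (log2 fold changes 0.45, 0.29 and 0.28). The list median was -1.11, close to the -1.09 of Grik1 itself. The difference without these genes was not computed.

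**Figure D3:**
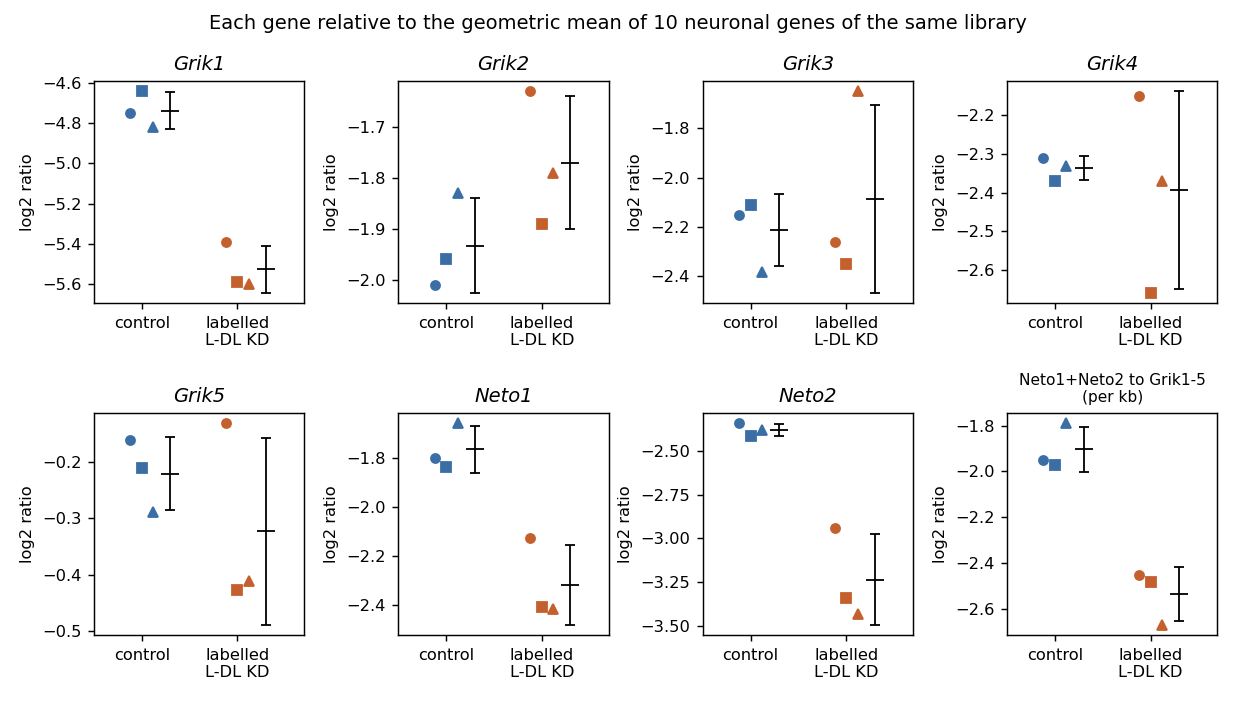
Log2 ratio of each gene's CPM to the geometric mean of 10 neuronal genes in the same library (y axis, scaled separately in each panel), and in the last panel the log2 ratio of Neto1 plus Neto2 to Grik1 to Grik5 per kb of exon. Points are libraries (circle, square and triangle for replicates 1, 2 and 3) and bars the mean with SD (n = 3); the groups are apart for Grik1, Neto1, Neto2 and the Neto to Grik ratio.

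Levels of different genes were compared per kb of merged exon (CPM per kb). In the controls Grik5 was the highest at 44.7, followed by Neto1 (9.49), Grik4 (8.94), Neto2 (8.46), Grik3 (6.49), Grik2 (5.33) and Grik1 (1.502). Neto1 and Grik4, and Grik4 and Neto2, overlapped between libraries, whereas the other neighbours in this order did not. In the L-DL KD-labelled libraries the order was Grik5 (34.0), Grik4 (7.02), Grik3 (5.79), Neto1 (5.28), Grik2 (4.85), Neto2 (3.84) and Grik1 (0.705), and every neighbouring pair from Grik4 to Neto2 overlapped. Both Neto genes thus stood lower in the order. The merged exon length includes long untranslated ends that may not be used in full, so the order is per annotated length.

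Grik1 made up a smaller share of the 5 subunit genes in every L-DL KD-labelled library than in any control. The sum of Grik1 to Grik5 was 70.0, 65.5 and 65.5 CPM per kb in the controls and 59.0, 50.3 and 47.7 CPM per kb in the L-DL KD-labelled libraries. Grik5 supplied 66.8 ± 0.716% of it in the controls and 64.7 ± 3.23% (SD, n = 3 each) in the L-DL KD-labelled libraries. Grik4 supplied 13.4 ± 0.489% and 13.4 ± 0.987%, Grik3 9.68 ± 0.661% and 11.3 ± 3.20%, Grik2 7.98 ± 0.793% and 9.28 ± 0.144%, and Grik1 2.24 ± 0.117% and 1.35 ± 0.0737% (SD, n = 3 each). The share of Grik2 also separated the groups, in the other direction, with 7.34, 7.73 and 8.86% in the controls and 9.21, 9.44 and 9.19% in the L-DL KD-labelled libraries. Those of Grik3, Grik4 and Grik5 overlapped. The ratio of high-affinity to low-affinity subunits was 4.18, 3.91 and 3.99 in the controls and 4.18, 3.76 and 2.95 in the L-DL KD-labelled libraries, where the groups overlapped (exact permutation p = 0.5). Grik5 to Grik4 did not separate the groups either (log2 difference -0.05, exact permutation p = 0.6).

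The auxiliary genes were lower relative to the subunits. The ratio of Neto1 plus Neto2 to Grik1 to Grik5 was 0.259, 0.256 and 0.289 in the controls and 0.184, 0.180 and 0.157 in the L-DL KD-labelled libraries. The groups were apart, with a log2 difference of -0.63 (exact permutation p = 0.1, adjusted 0.186). Within the pair, Neto1 to Neto2 was 1.07, 1.09 and 1.21 in the controls and 1.29, 1.40 and 1.48 in the L-DL KD-labelled libraries, a log2 difference of 0.31 with no overlap (exact permutation p = 0.1, adjusted 0.186). The ratio of Grik1 to Grik2 had a log2 difference of -0.96, also with no overlap (exact permutation p = 0.1, adjusted 0.186).

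Genes of proteins that bind, anchor or modify kainate receptors moved both ways. Of 22 listed genes 21 were matched and tested, and of these 3 rose, 7 fell and 11 were not called. Over all tested genes 15.6% were called higher and 15% lower. The median log2 fold change of the 21 genes was -0.01. The largest fall was that of Grip2, a PDZ scaffold, from 17.1 ± 0.251 to 7.20 ± 2.70 CPM (SD, n = 3 each; log2 fold change -1.25, adjusted p = 0.00626, edgeR). Snap25, a SNARE protein that also takes part in the removal of GluK5 receptors from the synapse, fell from 1334 to 665 CPM (log2 fold change -1.005, adjusted p = 0.000369, edgeR). Dpysl2 (Crmp2), which binds tubulin and receptors during axon growth, fell from 148 to 91.5 CPM (-0.69, adjusted p = 0.000494, edgeR), and Pfn2, the neuronal profilin, from 395 to 271 CPM (-0.55, adjusted p = 0.00519, edgeR). The other falls were those of Dlg4 (-0.46), Grip1 (-0.48) and Myo6 (-0.44) on the log2 scale. The rises were those of the adhesion genes Cdh2 (0.37) and Ctnnb1 (0.43) and of the PDZ protein Sdcbp (0.39). C1ql2 and C1ql3, secreted proteins of mossy fibres that gather kainate receptors, had log2 fold changes of -0.51 and -0.17 and were not called (adjusted p = 0.143 and 0.449, edgeR). The summed level of the 21 genes was 5143 to 5225 CPM in the controls and 4105 to 4573 CPM in the L-DL KD-labelled libraries.

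GluK1 and GluK2 transcripts are edited by adenosine deaminases at a codon of the channel pore, a change that lowers calcium entry. The editing level itself was not analysed here. Of the 3 deaminase genes, 2 fell and 1 was not called, where 15% of all tested genes were called lower. Adarb1 (ADAR2, the main editor of this codon) fell from 196 to 163 CPM (log2 fold change -0.27, standard error 0.06, adjusted p = 0.0145, edgeR), and its call was lost without control replicate 3 (adjusted p = 0.0585, edgeR). Adarb2, a brain protein without known activity of its own, fell from 23.3 to 15.9 CPM (-0.56, adjusted p = 0.0113, edgeR), and Adar had a log2 fold change of -0.10 (adjusted p = 0.436, edgeR).

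The genes whose profile over the 6 libraries was closest to each member were found by the root mean square difference of centred log2 CPM, among 11017 genes with a mean of at least 10 CPM. For Grik1 they were 2900026A02Rik (0.0327) and Dagla (0.0512), and for Grik2 Acad11 (0.0315) and Atp11b (0.0327). Ctdp1 (0.0458) and Tbccd1 (0.0639) were nearest to Grik3, Irak1bp1 (0.044) and Laptm4b (0.0458) to Grik4, and Rgmb (0.0276) and Eri3 (0.0307) to Grik5. The nearest to Neto1 were Slc6a15 (0.0373) and Nwd1 (0.0429), and to Neto2 Smpd3 (0.0463) and Ckmt1 (0.0482). No member was among the nearest genes of another member. Grik1 could not be one, since its means of 10.1 CPM (controls) and 4.74 CPM (L-DL KD-labelled) put it below the limit over all libraries. The 6 points share the group contrast, so this is a description of likeness only.

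Splicing was read from the counts of junction reads that include or skip a segment, as percent spliced in (PSI, written here from 0 to 1), after each count was divided by the length of its form. The splicing table does not name its groups, and its first sample was read as L-DL KD because its difference is the first sample minus the second and the study defines the change as L-DL KD minus control. Of the 31 events listed for the 7 genes, 26 were exon skipping, 3 were mutually exclusive exons and 2 were alternative 5′ splice sites. Grik4 had 8 events, Grik2 7, Grik1 6, Grik5 and Neto2 4 each, and Grik3 and Neto1 1 each. The mean PSI over all libraries was above 0.95 in 17 events, below 0.05 in 3, and between these in 11. Of the 31, 10 had the coverage for a test (a mean of at least 20 junction counts per library and of at least 1 count of each form), and none of these was called by edgeR at an adjusted p under 0.05, against 48 of 18829 events over all genes (0.255%). At an unadjusted p under 0.05, 1 of the 10 passed, near the 13.3% of all tested events, and limma also called none of them and had 1 under this limit. The groups were apart in 1 of the 10, against 18.4% of all tested events.

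The segments that make the known protein variants are shown first, since they tell the C-terminal tails and the Neto2 variants apart. All are from GENCODE M21 transcripts on GRCm38, on the minus strand and written 5′ to 3′. Capitals mark the stop codon in the Grik2 exons and the extension in the Neto2 exon. The Grik1 segment is coding exon 16 of Grik1-202, at chr16:87896809-87896895, a cassette of 87 nt without a stop codon in frame that lengthens the GluK1 tail. The 3 Grik2 segments are the coding parts of alternative 16th exons, at chr10:49105018-49105065 (Grik2-204, 15 codons before the stop, the short GluK2b tail), chr10:49103529-49103648 (Grik2-205, 39 codons) and chr10:49101108-49101272 (Grik2-202, 54 codons, the GluK2a tail, whose end binds PDZ proteins). The Neto2 exon is at chr8:85663387-85663431 (Neto2-205, exon 5), with 21 nt added to its 3′ end where the downstream splice site is used.
Grik1-202 exon 16: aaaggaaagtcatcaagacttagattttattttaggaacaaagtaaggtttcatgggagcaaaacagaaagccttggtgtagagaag
Grik2-204 exon 16: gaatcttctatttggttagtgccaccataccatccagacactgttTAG
Grik2-205 exon 16: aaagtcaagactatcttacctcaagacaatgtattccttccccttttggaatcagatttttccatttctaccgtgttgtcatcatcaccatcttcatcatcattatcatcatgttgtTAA
Grik2-202 exon 16: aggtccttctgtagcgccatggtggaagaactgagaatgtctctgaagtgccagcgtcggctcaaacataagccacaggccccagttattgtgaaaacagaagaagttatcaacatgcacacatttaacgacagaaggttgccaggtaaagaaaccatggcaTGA
Neto2-205 exon 5: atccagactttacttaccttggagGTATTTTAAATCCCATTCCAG

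At the alternative tail exons of Grik2, skipping reads outnumbered inclusion reads in both groups in the tested events. The 139 nt exon of Grik2 that holds the tail of Grik2-205 (chr10:49103510-49103648) had a PSI of 0.0494, 0.0822 and 0.0620 in the controls and 0.116, 0.0474 and 0.0271 in the L-DL KD-labelled libraries. Its means were 0.0645 ± 0.0166 and 0.0636 ± 0.0468 (SD, n = 3 each; adjusted p = 0.987, edgeR), from 59 to 89 junction reads per library. The 87 nt exon with the GluK2b tail (chr10:49104979-49105065), named after its values were seen, had a PSI of 0.104, 0.0804 and 0.113 in the controls and 0.0968, 0.0254 and 0.0433 in the L-DL KD-labelled libraries. Of these, 2 were below all controls and 1 lay among them, and the means were 0.0990 ± 0.0167 and 0.0552 ± 0.0371 (SD, n = 3 each; adjusted p = 0.605, edgeR). Both tested events count the same skipping reads, so they are not independent. A transcript that ends in one of these exons has no downstream junction to count. Each exon also had a second listed event, with a mean of 9.17 and 8.83 junction reads per library, too few for the test. There the mean PSI of the 139 nt exon was 0.288 in the controls and 0.437 in the L-DL KD-labelled libraries. That of the 87 nt exon was 0.539 and 0.354.

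The Grik1 cassette, also named after its values were seen, was too thinly covered for the main test. It had 29, 17 and 12 junction reads in the controls and 4, 4 and 7 in the L-DL KD-labelled libraries, and PSI values of 0.362 ± 0.129 and 0.411 ± 0.0405 (SD, n = 3 each). With the limit lowered to a mean of 10 junction counts per library it was tested and not called (log2 change in the odds of inclusion 0.43, adjusted p = 0.93, edgeR). The Neto2 extension had a PSI of 0.638, 0.327 and 0.917 in the controls and 0.502, 0.577 and 0.726 in the L-DL KD-labelled libraries. All L-DL KD-labelled libraries lay inside the wide range of the controls, and the means were 0.627 ± 0.295 and 0.601 ± 0.114 (SD, n = 3 each; adjusted p = 0.964, edgeR) from 8 to 45 junction reads per library. Both forms of the exon were therefore used in both groups, and the fall of the Neto2 count was not accompanied by a detectable shift between them.

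**Figure D4:**
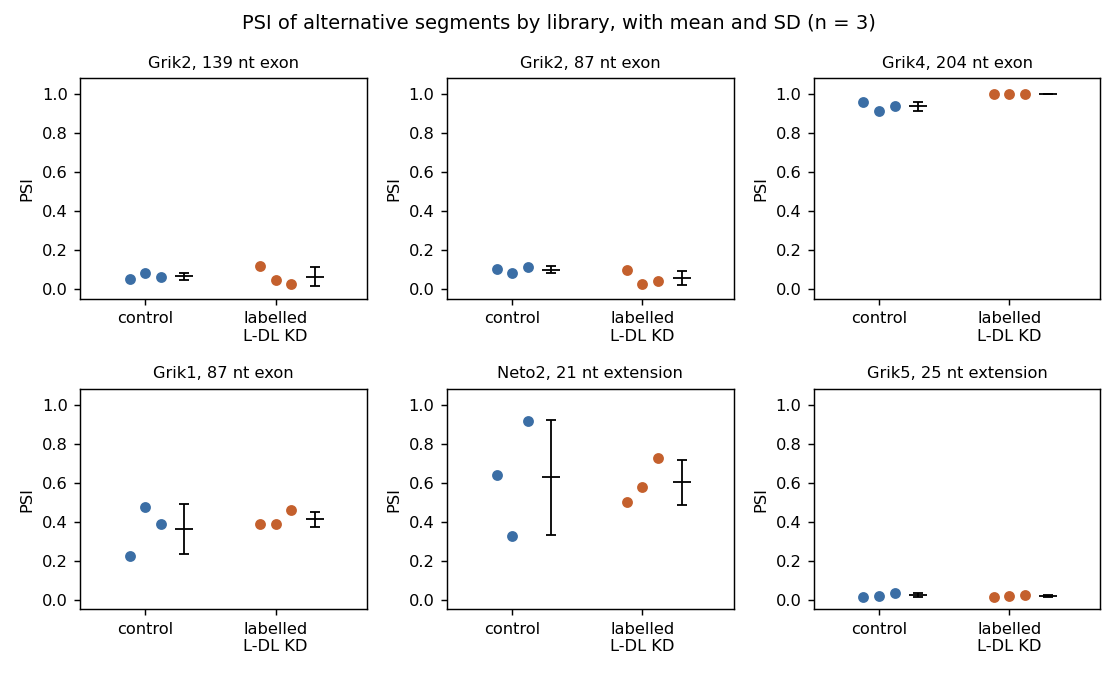
PSI (y axis, 0 to 1) of 6 alternative segments of Grik1, Grik2, Grik4, Grik5 and Neto2 in the 3 control libraries and the 3 L-DL KD-labelled libraries. Points are libraries and bars the mean with SD (n = 3); the groups are apart only for the 204 nt exon of Grik4, among the segments plotted.

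One exon of Grik4 passed the unadjusted limit. It is exon 11 of Grik4-201 (chr9:42591350-42591553, 204 nt), which codes for part of the domain that binds glutamate, and it is shown because skipping it would remove that part without a change of reading frame.
Grik4-201 exon 11: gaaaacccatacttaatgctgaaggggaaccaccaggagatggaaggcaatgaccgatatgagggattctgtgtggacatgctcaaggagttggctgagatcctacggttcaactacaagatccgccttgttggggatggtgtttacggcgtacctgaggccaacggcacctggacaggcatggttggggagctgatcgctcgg

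This exon was included in nearly all Grik4 transcripts. Its PSI was 0.960, 0.913 and 0.940 in the controls and 1 in all 3 L-DL KD-labelled libraries, so that the groups were apart. Skipping was seen in 2, 4 and 3 reads of the controls, or 9 of 282 reads (3.19%, 95% Wilson interval 1.69 to 5.95%), and in 0 of 217 reads of the L-DL KD-labelled libraries (95% Wilson interval up to 1.74%; a count of 0, taken as at most 3 reads, allows up to 1.38%). The Wilson intervals of the groups overlap, and all these bounds cover counting error only. The means were 0.938 ± 0.0234 and 1 ± 0 (SD, n = 3 each), and the difference had an unadjusted p of 0.0118 and an adjusted p of 0.247 from edgeR, so the exon was not called. Without division by form length the difference in PSI was 0.03 in place of 0.06. The mutually exclusive event of this exon with the 108 nt exon before it gave the latter 0.479 ± 0.0966 in the controls and 0.418 ± 0.0911 in the L-DL KD-labelled libraries (SD, n = 3 each; adjusted p = 0.845, edgeR), although each was nearly always included when counted by itself.

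Grik5 had the deepest junction coverage of the 7 genes. The 204 nt exon 12 of its transcript Grik5-201, included by 421 to 705 reads per library, had 3 skipping reads in the 3 controls and none in the L-DL KD-labelled libraries. An extension of exon 3 by 25 nt (chr7:25067985-25068009), which shifts the reading frame and is annotated in Grik5-202, a transcript marked for nonsense-mediated decay, was also named after its values were seen.
Grik5-202 exon 3 extension: gtgagcggggcctcaggggcgtggg

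The extension had a PSI of 0.0224 ± 0.00926 in the controls and 0.0188 ± 0.00540 in the L-DL KD-labelled libraries (SD, n = 3 each; adjusted p = 0.912, edgeR), from 281 to 367 reads per library. All 6 values lay between 0.0139 and 0.0330, with the groups overlapping. The single listed event of Neto1, exon 7 of Neto1-201 (chr18:86473615-86473843), had a PSI of 0.982 ± 0.0306 and 0.988 ± 0.0203 (SD, n = 3 each; adjusted p = 0.945, edgeR). That of Grik3 (177 nt, chr4:125623481-125623657) was skipped in 1 read of all 6 libraries. No event of the 7 genes was called among the 9 to 12 that could be tested under the other coverage limits, with limma or with 1 library left out.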

How the data were processed

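Total RNA of hippocampus was extracted with Trizol, enriched for mRNA by oligo(dT) beads and made into libraries with the NEBNext Ultra kit, which does not mark strand, and the authors sequenced 150 nt read pairs and aligned them to GRCm38 (mm10 in the labels). The submitters' processing notes name HISAT2 2.1.0, Bowtie 1.1.2 and HTSeq 0.6.1, without their roles. The files that the authors deposited hold unscaled counts of reads on each Ensembl gene, and the junction counts of rMATS for each event, listed per group without replicate numbers, with the form lengths. The rMATS p-values, FDR, inclusion levels and their differences hold the authors' own comparison and were not used. The groups are not named in that table: which of its samples is L-DL KD was inferred from the sign of its difference column and the study's definition of the change.

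Genes were tested on TMM-scaled counts in edgeR 4.0.16 (R 4.3.3; quasi-likelihood, Benjamini-Hochberg, at least 10 counts in at least 3 libraries, 17621 genes). Junction counts went into edgeR as 12 columns (inclusion and skipping form of every library) with a term per library, an inclusion effect and its change between groups (18829 events). Alternatives were DESeq2 1.42.0, limma 3.58.1 on log2 form ratios (pseudocount 0.5), library-size scaling, a block for the replicate number, other filters, and the omission of 1 library at a time. Both tests were also run on simulated counts, and the outcome is not reported here. Python 3.11.15, pandas 2.3.3, numpy 2.4.6 and scipy 1.17.1 were used for PSI, ratios and two-sided exact permutation tests. Exon positions, merged exon lengths and sequences came from GENCODE M21 on GRCm38, a later annotation than the authors' Ensembl release.

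The 7 genes and the lists were chosen with earlier results of these data known. Named were all 7 genes, Hnrnpdl, Adarb1 and the highest interneuron genes. Partner and editing genes were named if called with groups apart and a log2 fold change of at least 0.5 in size. The other called partners, C1ql2, C1ql3 and Adar were added after their values were seen. Of the tested events of a segment, only that with the smallest unadjusted edgeR p was kept. Of those kept, events with an unadjusted p under 0.05 were named. The best-covered event per gene with a PSI between 0.05 and 0.95 was named too. This left out a better-covered mutually exclusive event of Grik4, with exon 2 of Grik4-201. Its PSI was 0.432 in the controls and 0.447 in the L-DL KD-labelled libraries (adjusted p = 0.968, edgeR).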

Additional observations from a re-analysis of the deposited data

How the results depend on the processing

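With 1 library left out, the number of genes called ranged from 3498 to 6477, against 5379 with all libraries. It was 5525 with DESeq2, 5265 without the low-count filter, 5359 at a minimum of 1 CPM and 5444 with scaling by library size, which gave 3052 higher and 2392 lower in place of 2743 and 2636. Of the 7 kainate receptor and Neto genes, 3 to 5 were called, and all were lower, in every one of these settings. For Hnrnpdl the log2 fold change was -0.000808 without control replicate 3 and -0.127 without replicate 1 labelled L-DL KD, in place of 0.03, and it spanned -0.127 to 0.150 over all 6 omissions. Splicing calls over all genes were fragile. Limma called 0 events in place of 48 (2377 at an unadjusted p under 0.05), and leaving out 1 library gave 0 to 52. The log2 change in the odds of inclusion turned sign for the Neto2 extension, from -0.23 to 0.67 and 0.03 with 1 library left out (range -1.36 to 0.67), and for the 139 nt exon of Grik2, from -0.06 to 0.14, 0.16 and 0.32 (range -0.78 to 0.32). The difference of log2 ratios turned sign for Grik5 to Grik4 without replicate 3 labelled L-DL KD (0.0124, range -0.128 to 0.0124), for Grik3 to the neuronal genes without the same library (range -0.0912 to 0.256), and for Grik4 to the neuronal genes without replicate 2 labelled L-DL KD (range -0.177 to 0.0767). The cause of these changes was not tested.

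Samples of the 2 groups share replicate numbers, but the deviations of same-numbered samples from their group means correlated at 0.0666, 0.179 and -0.163, within the range of other pairs (-0.258 to 0.189), so the numbers do not pair the samples. With the replicate number as a block, 4635 genes were called, and 5 of the 7, with Grik4 added (adjusted p = 0.0417, edgeR). No paired analysis was possible because the junction counts carry no replicate numbers, and none was made for the ratios. Depth limited the Grik1 cassette and the Neto2 extension.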
